A study of Mus musculus with 19 samples.

Results

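The cell cycle and DNA replication genes described here are the 43 genes of the expression table whose symbol is on a list of known cell cycle genes, out of 27179 genes in all. Of the 43, 22 act mainly in mitosis (the mitotic genes) and 21 act at the entry into S phase or in DNA synthesis (the S phase genes). They were picked by symbol, not by a measured value, but with earlier results of these data known. All 43 passed the filter on low values, an RPKM (reads scaled by exon length and by library size) of at least 0.5 in at least 4 mice, as 14186 genes did.

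The study asked how sex chromosomes and gonads each shape the antibody response to a pneumococcal vaccine, with RNA-seq of spleen cells from 19 mice of the FCG model (core genotypes), bred from C57BL/6J mothers and B6.Cg fathers that carry the Sry deletion dl1Rlb and the transgene Tg(Sry)2Ei. In this line Sry is deleted from the Y chromosome and carried instead as a transgene on chromosome 3, so gonads and sex chromosomes vary independently. The groups were 5 XXF and 4 XYF mice, which have ovaries, and 5 XXM and 5 XYM mice, which have testes through the transgene. All 19 had been injected into the peritoneum with heat-killed Streptococcus pneumoniae (HKSP) and were killed a week later, no library came from an unimmunized mouse, and red cells were lysed before RNA was taken. The sources used here do not give the age of the mice. Each library came from 1 mouse, and the records number the replicates as separate mice. The running numbers in the sample titles follow the groups, so any effect of processing order and of group cannot be told apart.

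Reads recovered from the deposited values (whole reads within 0.02 for all 21317 genes with a read) summed to 14595054 to 17644855 per XXF library and 11263753 to 19040738 per XYF library. The XXM libraries held 12119957 to 18099717 and the XYM libraries 15887402 to 19962022 reads. The labels and the sex-linked genes went together in every library. Xist, the RNA that silences an X chromosome in XX cells, had 5823 to 12998 reads in the 10 XX mice and 2 to 17 in the 9 XY mice. Y chromosome genes (Ddx3y, Eif2s3y, Kdm5d, Uty) together had 4333 to 10521 reads in XY mice and 0 to 3 in XX mice. Sry had 12 to 119 reads in the 10 males and 0 in the 9 females. Spleen cell markers were present in every library: none of 8 B cell, 8 T cell, 6 NK cell or 8 myeloid markers was at 0 in any mouse.

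A dividing cell copies its DNA in S phase and parts the copies in mitosis, and the genes for these steps are transcribed in successive waves, with E2F factors acting at the S phase genes and the MuvB complex with B-Myb (gene Mybl2) and FoxM1 at the mitotic genes. Resting lymphocytes, which make up most of a spleen, hold both sets low. Cells known to divide in the spleen of an immunized mouse include activated B and T cells, plasmablasts and the erythroid and granulocyte precursors of the red pulp.

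The promoters of both sets are shown as a description of sequence, which the choice of genes by symbol did not use. Members of both sets moved together over mice (values given with the mouse by mouse scores), and any part of the promoters in this was not tested. RefSeq promoters on GRCm38.p6, 250 bases before to 50 after the start of a gene, were at hand for 35 of the 43 genes, 17 mitotic and 18 S phase. None was listed for Ccna2, Aurkb, Kif20a, Tpx2, Foxm1, Ccne2, Mcm4 and Gins2. They were searched on both strands for the CHR letters TTTGAA, the CCAAT box letters CCAAT and the E2F letters TTTNNCGC, where N is any base. TTTGAA was found in 12 of 17 mitotic promoters (70.6%), in 3 of 18 S phase promoters (16.7%) and for 20.2% of the 27025 genes of the promoter table. CCAAT was found in 15 mitotic promoters (88.2%) and 11 S phase promoters (61.1%), beside 41.1% of all genes. The E2F letters were found in 1 mitotic promoter, that of Cdk1 (5.88%), in 8 S phase promoters (44.4%) and for 5.93% of all genes. Those 8 belonged to Mcm3, Mcm5, Mcm6, Mcm7, Cdc6, Cdt1, Tyms and Uhrf1. TTTGAA and CCAAT stood together in 12 mitotic promoters, in 3 S phase promoters and for 8.97% of all genes. Such letters are a description of these windows, and binding was not measured. Promoters of 3 mitotic and 4 S phase genes are shown 5′ to 3′, each with the letters of any of the 3 motifs, on either strand, in capitals (a motif on the other strand appears as its reverse complement). Where motifs overlap or touch, their capitals run together. The first is that of Cdk1 (chr10:69352863-69353162 on the minus strand), which holds all 3 motifs, then those of Ube2c (chr2:164769679-164769978 on the plus strand) and Aurka (chr2:172370521-172370820 on the minus strand), which hold TTTGAA and CCAAT. The S phase ones are those of Mcm6 (chr1:128359656-128359955 on the minus strand), Mcm5 (chr8:75109259-75109558 on the plus strand), Cdc6 (chr11:98907901-98908200 on the plus strand) and Uhrf1 (chr17:56303087-56303386 on the plus strand, the first of 2 listed for it), which hold the E2F letters and no TTTGAA.
Cdk1: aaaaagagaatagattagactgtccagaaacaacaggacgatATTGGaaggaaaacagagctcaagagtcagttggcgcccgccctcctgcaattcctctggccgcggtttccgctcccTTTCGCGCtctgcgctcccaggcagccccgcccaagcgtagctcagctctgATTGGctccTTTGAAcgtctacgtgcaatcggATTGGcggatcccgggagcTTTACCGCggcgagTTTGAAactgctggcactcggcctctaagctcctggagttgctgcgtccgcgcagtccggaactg
Ube2c: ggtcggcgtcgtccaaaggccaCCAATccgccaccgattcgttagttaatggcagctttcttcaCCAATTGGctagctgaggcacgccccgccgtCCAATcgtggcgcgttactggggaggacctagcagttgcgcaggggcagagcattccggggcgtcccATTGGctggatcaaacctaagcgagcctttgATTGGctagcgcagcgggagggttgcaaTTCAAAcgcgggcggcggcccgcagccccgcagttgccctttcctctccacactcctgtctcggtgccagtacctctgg
Aurka: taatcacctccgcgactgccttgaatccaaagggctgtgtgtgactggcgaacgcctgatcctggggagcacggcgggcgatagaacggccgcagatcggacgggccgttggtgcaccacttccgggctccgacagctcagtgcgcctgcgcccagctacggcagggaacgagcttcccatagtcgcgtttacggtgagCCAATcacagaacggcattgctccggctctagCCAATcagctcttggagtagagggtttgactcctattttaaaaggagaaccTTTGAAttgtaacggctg
Mcm6: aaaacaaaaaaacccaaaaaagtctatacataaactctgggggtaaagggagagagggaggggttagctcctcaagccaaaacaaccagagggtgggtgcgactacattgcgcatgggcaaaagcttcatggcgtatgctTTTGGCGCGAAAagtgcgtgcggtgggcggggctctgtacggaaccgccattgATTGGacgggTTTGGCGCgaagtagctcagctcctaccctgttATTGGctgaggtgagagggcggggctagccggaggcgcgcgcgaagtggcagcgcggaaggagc
Mcm5: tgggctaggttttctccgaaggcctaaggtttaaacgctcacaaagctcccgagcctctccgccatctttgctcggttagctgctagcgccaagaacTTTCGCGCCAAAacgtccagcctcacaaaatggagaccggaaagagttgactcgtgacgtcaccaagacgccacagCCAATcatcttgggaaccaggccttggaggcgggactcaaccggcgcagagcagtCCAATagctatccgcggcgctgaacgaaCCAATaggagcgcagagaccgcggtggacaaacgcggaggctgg
Cdc6: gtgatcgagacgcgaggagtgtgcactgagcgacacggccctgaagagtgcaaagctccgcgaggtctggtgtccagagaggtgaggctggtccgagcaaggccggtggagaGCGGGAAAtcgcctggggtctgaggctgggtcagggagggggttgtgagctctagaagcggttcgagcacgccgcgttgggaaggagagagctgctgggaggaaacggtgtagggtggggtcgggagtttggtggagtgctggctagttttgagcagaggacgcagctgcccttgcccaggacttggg
Uhrf1: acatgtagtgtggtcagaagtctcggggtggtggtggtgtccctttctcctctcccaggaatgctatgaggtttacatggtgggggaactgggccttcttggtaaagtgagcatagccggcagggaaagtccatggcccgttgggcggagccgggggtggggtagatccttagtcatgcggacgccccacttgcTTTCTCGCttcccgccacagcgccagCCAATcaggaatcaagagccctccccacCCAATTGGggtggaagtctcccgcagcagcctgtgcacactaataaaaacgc

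The 43 genes were well measured in these bulk libraries. Mean RPKM over the 19 mice ran from 4.4 (Cenpf) to 78.7 (Ube2c) among mitotic genes and from 2.3 (Mybl2) to 52.7 (Mcm6) among S phase genes. The fewest reads of any member in any mouse were 41, for Mybl2, and the most were 25867, for Mki67. Both sets varied more between mice than most genes did: the difference between the highest and the lowest mouse on the log2 scale had a median of 2.52 over mitotic genes and 1.93 over S phase genes, beside 1.01 over the genes tested that have a symbol. Mki67 spanned the most (3.68) and Cdt1 the least (0.76). In a bulk sample, fewer cells of a type and less RNA per cell cannot be told apart, and this holds for every level given here.

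Together the 43 genes took a share of each library that differed widely between mice. They took 0.273, 0.218, 0.247, 0.215 and 0.185% of the reads in XXF F1 to F5 and 0.562, 0.189, 0.351 and 0.687% in XYF F6 to F9. In males they took 0.146, 0.137, 0.216, 0.186 and 0.253% in XXM 2, 5, 6, 7 and 8 and 0.166, 0.237, 0.158, 0.192 and 0.525% in XYM 12, 13, 15, 16 and 9. XYF F9, XYF F6 and XYM 9 stood highest, XYF F8 came next, and XYF F7 lay within the range of the XXF mice. XXM 5 and XXM 2 stood lowest. Mice are listed in this order in all that follows, XXF F1 to F5, XYF F6 to F9, XXM 2, 5, 6, 7 and 8 and XYM 12, 13, 15, 16 and 9, and levels of genes are the deposited log2(RPKM + 1) values.

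A mitotic score and an S phase score per mouse, each the mean log2 value of its genes after every gene was centred on all mice, set the same mice apart. The mitotic score was 0.08, -0.16, 0.04, -0.17 and -0.41 in XXF and 1.24, -0.35, 0.57 and 1.62 in XYF mice, and -0.70, -0.88, -0.12, -0.43 and 0.06 in XXM and -0.69, 0.04, -0.65, -0.40 and 1.32 in XYM mice. The S phase score was 0.20, -0.05, 0.00, -0.18 and -0.32 in XXF and 1.06, -0.20, 0.47 and 1.15 in XYF mice, and -0.51, -0.58, -0.19, -0.22 and 0.01 in XXM and -0.52, -0.08, -0.42, -0.39 and 0.77 in XYM mice. XYF F9, XYM 9 and XYF F6 held the 3 highest values of both scores, and the groups overlapped on both. The mean mitotic score was -0.12 ± 0.20 in XXF (SD, n = 5), 0.77 ± 0.87 in XYF (n = 4), -0.42 ± 0.39 in XXM (n = 5) and -0.07 ± 0.83 in XYM (n = 5). For the S phase score these were -0.07 ± 0.20, 0.62 ± 0.63, -0.30 ± 0.25 and -0.13 ± 0.53. The spread within the XY groups was thus larger than within the XX groups on both scores. Over the 19 mice the scores had a Pearson r of 0.98 and a Spearman rho of 0.98, and r was 0.98 without XYF F9 and XYM 9, the mice farthest out, and 0.98 after each group's mean was removed. Both scores of a mouse come from the same library, so this is a description. The amplitude differed between the sets: in XYM 9 the mitotic score lay 0.55 above the S phase score and in XYF F9 0.47 above it, while in XXM 5 the mitotic score minus the S phase score was -0.30.

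**Figure D1:**
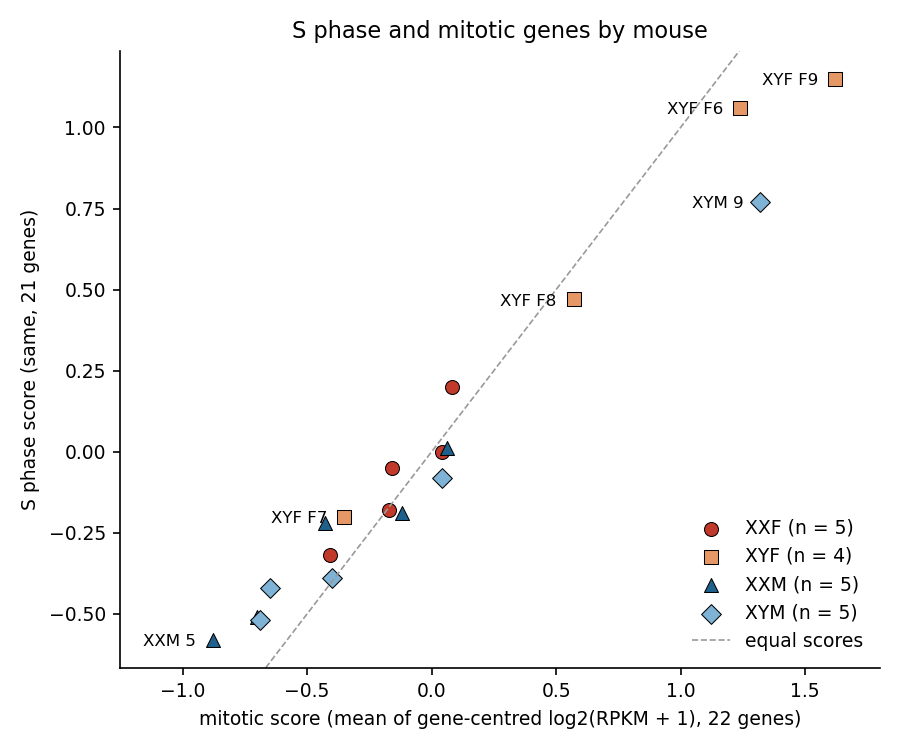
Mitotic score against S phase score (both mean centred log2 values) for the 19 mice, coloured by group, 1 point per mouse. The points lie along a line (r = 0.98), with XYF F9 (1.62 and 1.15), XYM 9 (1.32 and 0.77) and XYF F6 (1.24 and 1.06) at the upper end and XXM 5 (-0.88 and -0.58) at the lower end.

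Gene by gene, the same few mice stood out. XYF F9 held the highest value of 29 of the 43 members, XYF F6 of 13 and XYM 9 of 1 (Bub1b). These 3 mice were the 3 highest for 38 members, the exceptions being Kif20a, Ccne1, Mcm2, Cdt1 and Gins2, and XYF F8 was among the 4 highest for 39. XYF F9 led 17 of 22 mitotic genes, while XYF F6 led 9 of 21 S phase genes and only 4 mitotic ones. At the low end, XXM 5 held the lowest value of 17 members, XYM 12 of 12, XXM 2 of 11 and XYM 16 of 3. The Pearson r of a gene with the mitotic score over the 19 mice, which for mitotic genes includes the gene itself, was lowest for Cdt1 (0.54), Mcm2 (0.80) and Gins2 (0.86) and lay between 0.87 and 0.99 for all others.

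**Figure D2:**
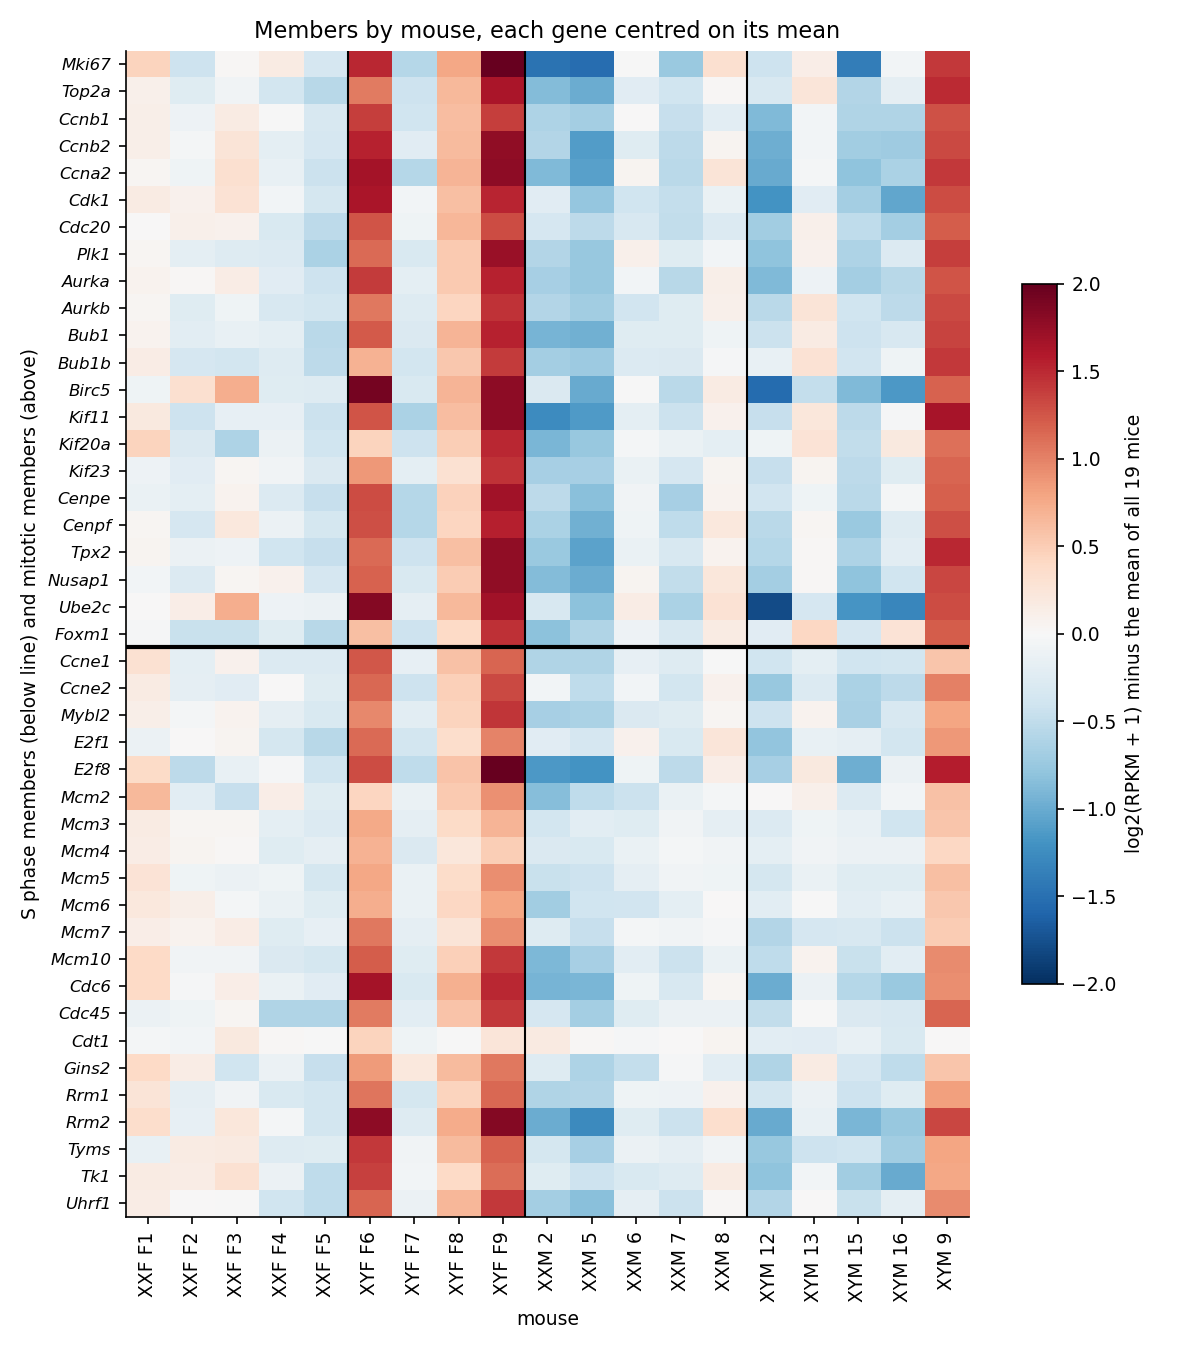
Centred log2(RPKM + 1) of the 43 genes (lines, mitotic genes above S phase genes) in the 19 mice (columns, by group). Columns XYF F6, XYF F9 and XYM 9 are high over most lines, XYF F8 is moderately high, and XXM 2, XXM 5 and XYM 12 are low.

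Mki67 codes for Ki-67, a coat protein of mitotic chromosomes that is absent from resting cells, and Top2a for the topoisomerase that untangles sister DNA molecules. Mki67 stood at 5.38, 4.53, 4.96, 5.10 and 4.60 in the XXF mice and at 6.45, 4.37, 5.72 and 7.09 in the XYF mice. In males Mki67 stood at 3.47, 3.41, 4.93, 4.20 and 5.26 in XXM and at 4.52, 5.07, 3.56, 4.89 and 6.35 in XYM. Its 3 highest mice were XYF F9, XYF F6 and XYM 9 and its lowest XXM 5 and XXM 2, and every pair of groups overlapped. Top2a stood at 5.33, 4.98, 5.16, 4.86 and 4.67 in the XXF mice and at 6.26, 4.81, 5.87 and 6.86 in the XYF mice. In males Top2a stood at 4.36, 4.23, 5.0, 4.83 and 5.24 in XXM and at 4.91, 5.47, 4.64, 5.05 and 6.71 in XYM. XYF F9, XYM 9 and XYF F6 were again the highest, and the XXF mice lay close together between 4.67 and 5.33. Foxm1, the factor that acts at many mitotic genes, was among the least abundant with a mean RPKM of 4.69. Foxm1 stood at 2.35, 1.93, 1.92, 2.13 and 1.82 in the XXF mice and at 2.98, 1.96, 2.77 and 3.84 in the XYF mice. In males Foxm1 stood at 1.55, 1.77, 2.27, 2.06 and 2.54 in XXM and at 2.15, 2.79, 2.03, 2.64 and 3.58 in XYM. XYF F9 and XYM 9 were the highest, and among males XYM 13 and XYM 16 lay above every XXM mouse while XYM 12 and XYM 15 lay within the XXM range.

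Cdk1 is the kinase that drives entry into mitosis, and the cyclins A2, B1 and B2 (Ccna2, Ccnb1, Ccnb2) switch it on. Cdk1 stood at 3.96, 3.87, 4.08, 3.74 and 3.44 in the XXF mice and at 5.42, 3.73, 4.39 and 5.32 in the XYF mice. In males Cdk1 stood at 3.56, 3.02, 3.39, 3.32 and 3.66 in XXM and at 2.59, 3.57, 3.11, 2.75 and 5.10 in XYM. Here XYM 12 and XYM 16 were the lowest of all 19 mice, and XYM 9 alone of its group came near XYF F6 and XYF F9. Ccna2 stood at 4.84, 4.72, 5.13, 4.66 and 4.37 in the XXF mice and at 6.47, 4.24, 5.48 and 6.60 in the XYF mice. In males Ccna2 stood at 3.92, 3.71, 4.86, 4.26 and 5.06 in XXM and at 3.80, 4.76, 4.0, 4.17 and 6.22 in XYM. Ccna2 was highest in XYF F9, XYF F6 and XYM 9 and lowest in XXM 5 and XYM 12. Ccnb1 stood at 2.94, 2.73, 2.99, 2.81 and 2.50 in the XXF mice and at 4.21, 2.42, 3.44 and 4.20 in the XYF mice. In males Ccnb1 stood at 2.21, 2.14, 2.83, 2.36 and 2.62 in XXM and at 1.94, 2.77, 2.23, 2.22 and 4.10 in XYM. Ccnb1 differed little between XYF F6, XYF F9 and XYM 9, the highest, and XYM 12 was the lowest. Ccnb2 stood at 4.58, 4.42, 4.72, 4.26 and 4.12 in the XXF mice and at 6.0, 4.23, 5.10 and 6.24 in the XYF mice. In males Ccnb2 stood at 3.87, 3.35, 4.22, 3.93 and 4.51 in XXM and at 3.48, 4.41, 3.77, 3.75 and 5.78 in XYM. Ccnb2, the more abundant B cyclin RNA, was highest in XYF F9 and lowest in XXM 5. The SD of the 3 cyclins was 0.19 to 0.28 within XXF and 0.29 to 0.59 within XXM, but 0.84 to 1.09 within XYF and 0.86 to 0.98 within XYM.

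Mitosis ends when Cdc20 and the ubiquitin-conjugating enzyme Ube2c act with the anaphase-promoting complex to mark cyclin B for destruction, and the checkpoint proteins Bub1 and Bub1b hold this back until chromosomes are attached. Ube2c was the most abundant of all 43 members per length. Ube2c stood at 6.02, 6.14, 6.74, 5.90 and 5.89 in the XXF mice and at 7.84, 5.83, 6.66 and 7.68 in the XYF mice. In males Ube2c stood at 5.69, 5.18, 6.15, 5.37 and 6.30 in XXM and at 4.22, 5.67, 4.83, 4.70 and 7.31 in XYM. XYF F6 was the highest, and 4 of 5 XYM mice lay below every XYF mouse, XYM 9 being the exception. Cdc20 stood at 3.96, 4.05, 4.04, 3.65 and 3.43 in the XXF mice and at 5.21, 3.86, 4.62 and 5.26 in the XYF mice. In males Cdc20 stood at 3.61, 3.43, 3.63, 3.46 and 3.68 in XXM and at 3.25, 4.06, 3.44, 3.27 and 5.16 in XYM. For Cdc20 too XYM 9 lay far above the other XYM mice, and the XXM mice lay close together (SD 0.11). Bub1 stood at 2.47, 2.18, 2.25, 2.20 and 1.85 in the XXF mice and at 3.62, 2.10, 3.08 and 3.93 in the XYF mice. In males Bub1 stood at 1.46, 1.43, 2.16, 2.16 and 2.31 in XXM and at 1.96, 2.56, 1.99, 2.08 and 3.75 in XYM. XYF F9, XYM 9 and XYF F6 were the highest. All 10 XX mice lay below the mean of the XY mice, and 7 of 9 XY mice above that of the XX mice. Bub1b stood at 3.50, 3.01, 2.98, 3.08 and 2.82 in the XXF mice and at 4.04, 2.98, 3.88 and 4.75 in the XYF mice. In males Bub1b stood at 2.66, 2.62, 3.07, 3.05 and 3.32 in XXM and at 3.19, 3.63, 2.96, 3.26 and 4.76 in XYM. Bub1b was the only member that XYM 9 led, just ahead of XYF F9.

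Aurora kinases A and B (Aurka, Aurkb) and Polo-like kinase 1 (Plk1) organise the spindle and the division of the cell, and survivin (Birc5) anchors Aurora B to centromeres. Birc5 stood at 3.86, 4.28, 4.68, 3.71 and 3.70 in the XXF mice and at 5.87, 3.65, 4.64 and 5.74 in the XYF mice. In males Birc5 stood at 3.67, 2.95, 3.94, 3.42 and 4.11 in XXM and at 2.41, 3.48, 3.07, 2.80 and 5.14 in XYM. For Birc5, XYM 12 and XYM 16 were the lowest of all mice, while XYM 9 ranked next after XYF F6 and XYF F9. Aurka stood at 3.88, 3.83, 3.96, 3.59 and 3.39 in the XXF mice and at 5.21, 3.61, 4.33 and 5.35 in the XYF mice. In males Aurka stood at 3.14, 3.05, 3.75, 3.25 and 3.93 in XXM and at 2.93, 3.71, 3.13, 3.26 and 5.07 in XYM. Aurka was lowest in XYM 12. Aurkb averaged 3.61 ± 0.17 in XXF, 4.47 ± 0.75 in XYF, 3.44 ± 0.31 in XXM and 3.83 ± 0.80 in XYM (SD, n = 5, 4, 5 and 5). Plk1 stood at 3.28, 3.04, 2.99, 2.96 and 2.61 in the XXF mice and at 4.38, 2.94, 3.77 and 4.96 in the XYF mice. In males Plk1 stood at 2.66, 2.48, 3.35, 3.0 and 3.19 in XXM and at 2.43, 3.33, 2.62, 2.96 and 4.63 in XYM. For these kinases too, XYF F9, XYM 9 and XYF F6 were the 3 highest mice, and XYF F7 lay with the XXF mice.

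The motors and spindle proteins move and fasten chromosomes. Kif11 pushes the spindle poles apart. Kif11 stood at 3.91, 3.30, 3.54, 3.55 and 3.28 in the XXF mice and at 4.96, 3.08, 4.32 and 5.49 in the XYF mice. In males Kif11 stood at 2.45, 2.57, 3.51, 3.28 and 3.80 in XXM and at 3.24, 3.94, 3.18, 3.68 and 5.36 in XYM. XXM 2 and XXM 5 were its lowest mice. Cenpf, a kinetochore protein, had the lowest mean RPKM of the mitotic genes (4.4). Cenpf stood at 2.29, 1.91, 2.45, 2.12 and 1.89 in the XXF mice and at 3.54, 1.68, 2.67 and 3.80 in the XYF mice. In males Cenpf stood at 1.61, 1.29, 2.16, 1.74 and 2.46 in XXM and at 1.70, 2.29, 1.50, 1.98 and 3.54 in XYM. It was highest in XYF F9, with XYF F6 and XYM 9 level at 3.54. The other genes of this kind, Kif20a, Kif23, Cenpe, Tpx2 and Nusap1, spanned 2.11 (Kif23) to 2.85 (Tpx2) between the lowest and the highest mouse, and Kif20a was the only gene of these in which XYF F6, at 2.88, was not among the 3 highest.

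Among the S phase genes, cyclins E1 and E2 (Ccne1, Ccne2) start DNA synthesis with their kinase, and E2f1, E2f8 and Mybl2 are factors of the S phase wave. Ccne1 stood at 4.15, 3.65, 3.92, 3.56 and 3.56 in the XXF mice and at 5.08, 3.67, 4.42 and 5.01 in the XYF mice. In males Ccne1 stood at 3.24, 3.24, 3.67, 3.58 and 3.84 in XXM and at 3.44, 3.64, 3.44, 3.47 and 4.39 in XYM. XYF F6 and XYF F9 were the highest, then XYF F8, and 4 of 5 XYM mice lay below every XYF mouse. Mybl2 stood at 1.72, 1.56, 1.67, 1.42 and 1.30 in the XXF mice and at 2.57, 1.40, 2.05 and 3.04 in the XYF mice. In males Mybl2 stood at 0.94, 0.97, 1.31, 1.36 and 1.65 in XXM and at 1.19, 1.67, 0.95, 1.29 and 2.40 in XYM. Mybl2 had the lowest level of all 43 members, and XYF F9, XYF F6 and XYM 9 led it. Ccne2 stood at 2.75, 2.41, 2.36, 2.60 and 2.35 in the XXF mice and at 3.74, 2.17, 3.07 and 3.91 in the XYF mice. In males Ccne2 stood at 2.54, 2.08, 2.54, 2.23 and 2.67 in XXM and at 1.84, 2.32, 1.96, 2.07 and 3.60 in XYM. Ccne2 was highest in XYF F9 and lowest in XYM 12 and XYM 15. E2f1 ran from 2.38 (XYM 12) to 4.31 (XYF F6) and E2f8 from 1.70 (XXM 5) to 5.06 (XYF F9), the widest span of any S phase gene.

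Cdc6 and Cdt1 load the Mcm2 to Mcm7 ring, the replicative helicase, onto DNA, and Mcm10, Cdc45 and the GINS subunit Gins2 turn it on. Cdc6 stood at 2.75, 2.33, 2.48, 2.21 and 2.12 in the XXF mice and at 4.01, 2.05, 3.06 and 3.85 in the XYF mice. In males Cdc6 stood at 1.42, 1.43, 2.26, 2.02 and 2.38 in XXM and at 1.35, 2.23, 1.77, 1.61 and 3.27 in XYM. Cdc6 was highest in XYF F6 and XYF F9 and lowest in XYM 12, XXM 2 and XXM 5. Cdt1 stood at 4.76, 4.74, 4.99, 4.82 and 4.79 in the XXF mice and at 5.25, 4.71, 4.79 and 5.04 in the XYF mice. In males Cdt1 stood at 4.98, 4.82, 4.78, 4.81 and 4.85 in XXM and at 4.59, 4.57, 4.65, 4.49 and 4.81 in XYM. Cdt1 moved least of all members: XYF F6 at 5.25 and XYF F9 at 5.04 were the highest, and XYM 12, XYM 13, XYM 15 and XYM 16 the lowest. Cdt1 protein is known to be limited by its destruction in S phase, which RNA does not show.

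The helicase ring is made of related subunits, Mcm2 to Mcm7, of which Mcm6 was the most abundant per length. Mcm6 stood at 5.90, 5.81, 5.65, 5.57 and 5.46 in the XXF mice and at 6.42, 5.56, 6.11 and 6.48 in the XYF mice. In males Mcm6 stood at 5.0, 5.29, 5.32, 5.50 and 5.70 in XXM and at 5.48, 5.68, 5.49, 5.55 and 6.24 in XYM. XYF F9, XYF F6 and XYM 9 were the highest and XXM 2 the lowest. Mcm2 stood at 4.89, 4.04, 3.78, 4.38 and 4.01 in the XXF mice and at 4.68, 4.11, 4.77 and 5.17 in the XYF mice. In males Mcm2 stood at 3.40, 3.74, 3.82, 4.11 and 4.21 in XXM and at 4.25, 4.35, 3.98, 4.19 and 4.84 in XYM. Mcm2 was highest in XYF F9, but XXF F1 came next at 4.89, above XYM 9. Mcm7 stood at 5.51, 5.45, 5.53, 5.14 and 5.21 in the XXF mice and at 6.43, 5.19, 5.63 and 6.31 in the XYF mice. In males Mcm7 stood at 5.11, 4.92, 5.34, 5.30 and 5.35 in XXM and at 4.79, 5.04, 5.05, 4.94 and 5.88 in XYM. For Mcm7 XYF F6 and XYF F9 were the highest, and XYM 12, XXM 5 and XYM 16 the lowest. Mcm3, Mcm4 and Mcm5 spanned 1.16, 1.0 and 1.38, less than every mitotic gene, the narrowest of which was Cdc20 (2.01). Mcm10 stood at 2.63, 2.17, 2.17, 1.94 and 1.88 in the XXF mice and at 3.45, 1.99, 2.72 and 3.65 in the XYF mice. In males Mcm10 stood at 1.34, 1.57, 2.03, 1.80 and 2.11 in XXM and at 1.73, 2.31, 1.79, 2.03 and 3.18 in XYM. Mcm10, a helicase activator, was highest in XYF F9 and lowest in XXM 2 and XXM 5. Cdc45 stood at 3.10, 3.13, 3.25, 2.61 and 2.61 in the XXF mice and at 4.26, 3.01, 3.79 and 4.63 in the XYF mice. In males Cdc45 stood at 2.88, 2.54, 2.97, 3.09 and 3.10 in XXM and at 2.72, 3.20, 2.92, 2.89 and 4.38 in XYM. Cdc45 was led by XYF F9, XYM 9 and XYF F6, with XXM 5 lowest. Gins2 stood at 3.16, 2.90, 2.35, 2.63 and 2.30 in the XXF mice and at 3.61, 2.96, 3.38 and 3.81 in the XYF mice. In males Gins2 stood at 2.49, 2.14, 2.27, 2.73 and 2.55 in XXM and at 2.16, 2.92, 2.42, 2.24 and 3.31 in XYM. For Gins2 the XYF mice F6, F8 and F9 lay above every other mouse.

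Ribonucleotide reductase (Rrm1, Rrm2), thymidylate synthase (Tyms) and thymidine kinase (Tk1) supply the building blocks of DNA, and Uhrf1 carries DNA methylation over to the new strand. Rrm2 stood at 5.40, 4.88, 5.27, 5.0 and 4.67 in the XXF mice and at 6.83, 4.78, 5.78 and 6.87 in the XYF mice. In males Rrm2 stood at 4.05, 3.77, 4.80, 4.61 and 5.38 in XXM and at 4.04, 4.89, 4.12, 4.28 and 6.37 in XYM. Rrm2 had the widest span of these supply genes (3.11), with XYF F9 and XYF F6 highest and XXM 5 lowest. Tyms stood at 2.14, 2.45, 2.46, 2.03 and 2.04 in the XXF mice and at 3.70, 2.21, 2.91 and 3.46 in the XYF mice. In males Tyms stood at 1.93, 1.62, 2.16, 2.11 and 2.21 in XXM and at 1.52, 1.87, 1.89, 1.58 and 3.07 in XYM. Tyms was highest in XYF F6 and lowest in XYM 12 and XYM 16. Tk1 stood at 4.48, 4.46, 4.61, 4.19 and 3.80 in the XXF mice and at 5.68, 4.25, 4.71 and 5.43 in the XYF mice. In males Tk1 stood at 4.06, 3.90, 4.01, 4.05 and 4.48 in XXM and at 3.50, 4.25, 3.62, 3.30 and 5.08 in XYM. Tk1 too was highest in XYF F6, and XYM 16 and XYM 12 were the lowest. Rrm1 stood at 5.44, 5.0, 5.12, 4.88 and 4.82 in the XXF mice and at 6.25, 4.83, 5.63 and 6.33 in the XYF mice. In males Rrm1 stood at 4.58, 4.60, 5.10, 5.08 and 5.27 in XXM and at 4.81, 5.06, 4.77, 4.94 and 6.0 in XYM. Rrm1 varied less than Rrm2, with XYF F9 highest and XXM 2 lowest. Uhrf1 stood at 4.07, 3.93, 3.92, 3.52 and 3.42 in the XXF mice and at 5.08, 3.81, 4.58 and 5.34 in the XYF mice. In males Uhrf1 stood at 3.24, 3.08, 3.75, 3.49 and 3.95 in XXM and at 3.33, 3.93, 3.48, 3.73 and 4.87 in XYM. Uhrf1 was highest in XYF F9 and XYF F6 and lowest in XXM 5 and XXM 2, and XYF F7 lay within the XXF range.

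**Figure D3:**
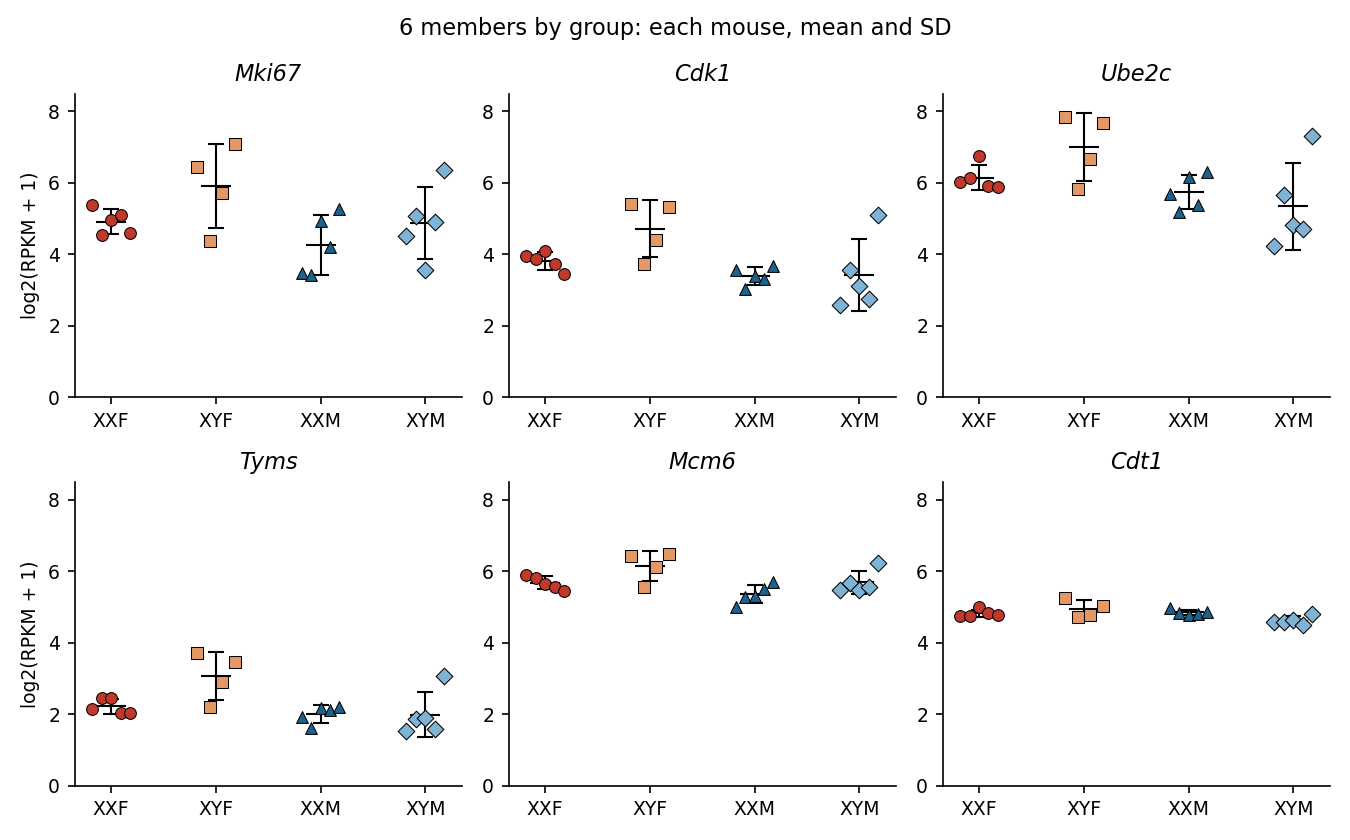
log2(RPKM + 1) of Mki67, Cdk1, Ube2c, Tyms, Mcm6 and Cdt1 in the 19 mice, 1 point per mouse with the group mean and SD, by group. Mki67 runs from 3.41 (XXM 5) to 7.09 (XYF F9), Cdt1 only from 4.49 to 5.25, and XYM 9 lies above the other XYM mice in each panel.

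Markers of several spleen cell types moved with the scores, and the values below are summed RPKM of each list per mouse. None of the genes of these lists was at 0 in any mouse. Erythroid markers (12 of 13 listed genes in the table; most abundant Hbb-bs, mean RPKM 10100) summed to 12900, 19800, 29000, 23000 and 16400 in XXF, 48500, 20200, 16000 and 36800 in XYF, 12400, 9760, 7720, 7400 and 14700 in XXM and 2340, 6930, 5080, 1630 and 14900 in XYM. XYF F6 and XYF F9 were the highest and XYM 16 and XYM 12 the lowest. The log2 sum had r = 0.58 and rho = 0.54 with the mitotic score over 19 mice, r = 0.57 without XYF F9 and XYM 9, and r = 0.66 after removal of group means. With each marker centred and averaged, so that no globin dominates, the erythroid level had r = 0.81 and rho = 0.83 with the mitotic score over 19 mice, r = 0.80 without XYF F9 and XYM 9, and r = 0.95 after removal of group means. Globin genes are near copies of each other, and the sources used here do not say how reads matching several copies were treated.

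Neutrophil precursor markers (8 genes; most abundant Ngp, mean RPKM 1670) summed to 859, 569, 889, 711 and 735 in XXF, 2490, 2220, 1420 and 14200 in XYF, 1230, 1030, 2120, 1260 and 1330 in XXM and 835, 2320, 835, 1360 and 15500 in XYM. XYM 9 and XYF F9 stood far above all other mice, and XYF F6 did not reach them. The log2 sum had r = 0.78 and rho = 0.58 with the mitotic score. Without XYF F9 and XYM 9 r fell to 0.43, so the relation rested in large part on those mice. With all 19 mice, r was 0.83 after removal of group means. B cell markers (8 genes; most abundant Cd79b, mean RPKM 865) summed to 3040, 2870, 2490, 2870 and 2790 in XXF, 1590, 2590, 2690 and 1360 in XYF, 4000, 4390, 3950, 4010 and 3670 in XXM and 3760, 3130, 3890, 3600 and 2310 in XYM. They were lowest in XYF F9 and XYF F6, then XYM 9, with r = -0.87 and rho = -0.75. For B cell markers r was -0.81 without XYF F9 and XYM 9, and -0.87 after removal of group means. NK cell markers (6 genes; most abundant Gzma, mean RPKM 201) summed to 384, 420, 412, 517 and 478 in XXF, 145, 239, 162 and 81.2 in XYF, 394, 323, 395, 368 and 331 in XXM and 192, 193, 282, 156 and 59.5 in XYM. They were lowest in XYM 9, XYF F9 and XYF F6, with r = -0.71 and rho = -0.39. For NK cell markers r was -0.39 without XYF F9 and XYM 9, and -0.85 with all 19 mice after removal of group means.

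The remaining lists are given by their range and by the correlation of the log2 sum with the mitotic score. Myeloid markers (8 genes, most abundant Lyz2) summed to 961 (XYM 15) to 4020 (XYF F9), with r = 0.66. Their r was 0.11 without XYF F9 and XYM 9, and 0.61 with all mice after removal of group means. Plasma cell markers (9 of 10 listed genes in the table; most abundant Ighm) summed to 4800 (XXF F4) to 12500 (XYF F8), with r = 0.44, but r = 0.13 with each marker centred and averaged, and r = 0.0 for the log2 sum after removal of group means. Ighm made up most of that sum. Germinal centre B cell markers (8 genes; most abundant Bcl6) summed to 27.0 (XXM 2) to 85.0 (XYF F8), with r = 0.12. T cell markers (8 genes, most abundant Trac) summed to 338 (XYM 9) to 1550 (XXF F2). Their r was -0.06, but 0.33 without XYF F9 and XYM 9 and -0.81 after removal of group means. Megakaryocyte markers (5 genes; most abundant Ppbp) summed to 25.1 in the lowest mouse, XYM 16, and were highest in XYF F9, with r = 0.27. Library size had r = 0.08 with the mitotic score. Beside those of single members, 20 correlations were computed, the points of each share a library, and none was tested. The part of any of these cell types in the results below was not tested.

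**Figure D4:**
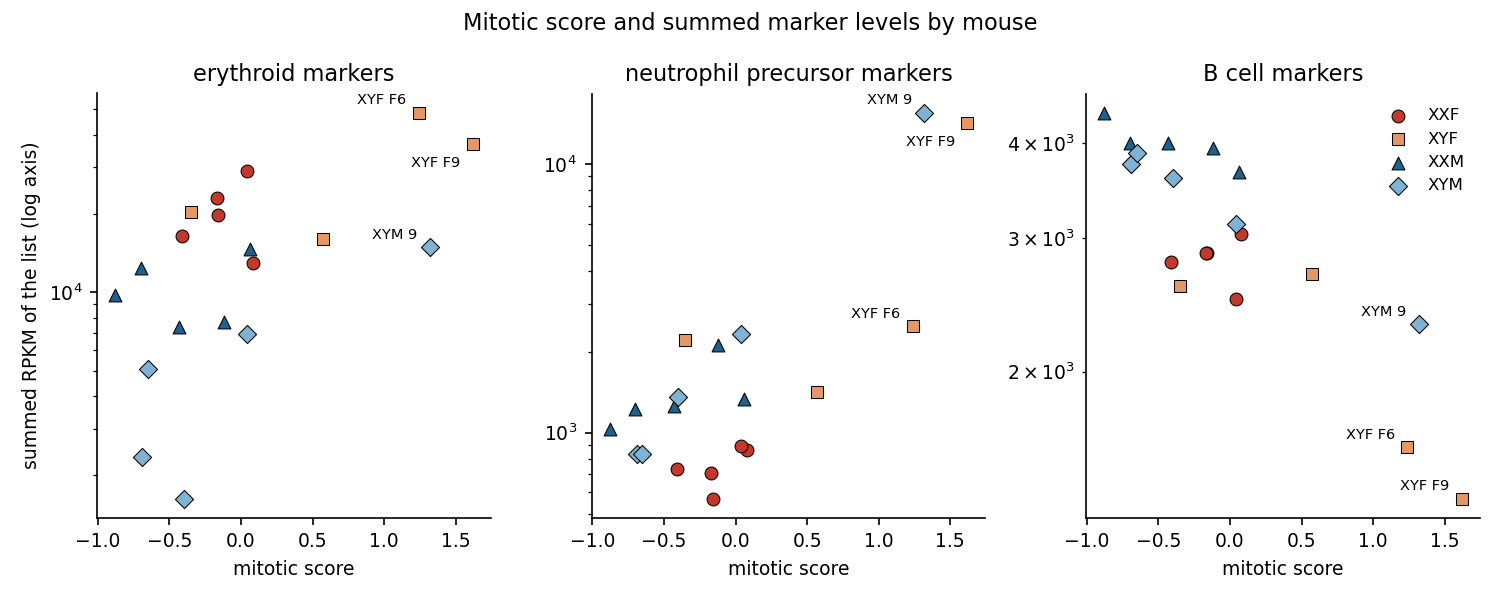
Summed RPKM (log axis) of erythroid, neutrophil precursor and B cell markers against the mitotic score of the 19 mice, coloured by group, 1 point per mouse. XYF F6 is highest in erythroid markers (48500), XYM 9 and XYF F9 stand apart in neutrophil precursor markers (15500 and 14200), and B cell markers fall as the score rises (1360 in XYF F9, 4390 in XXM 5).

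Group comparisons were made by limma on the deposited log2 values of all 14186 genes, with Benjamini-Hochberg adjustment over all of them. A gene is called at an adjusted p under 0.1 with a change of more than 1.5 times. The 7 comparisons share mice with each other, so their counts are not independent. A median over the mitotic or S phase genes is a description, set beside the median over all genes.

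Males and females that share XY differ in gonads and in carrying the transgene. The means of the cell cycle genes were lower in XYM than in XYF, and part of them were called, with like medians for S phase and mitotic genes. All 43 differences were below 0, and the median was -0.78 over mitotic and -0.75 over S phase genes, beside 0.02 over all genes. limma called 21 of 43 members, all lower in XYM, 8 mitotic and 13 S phase, where 15.8% of all genes tested were called and 8.13% were called lower. limma-voom on recovered reads also called 21. No member separated the groups without overlap, as 13.8% of all genes did, and XYM 9 lay above XYF F7 in each of the 43. The largest difference was that of Ube2c at -1.66 ± 0.50 (SE; adjusted p 0.0223 by limma with Benjamini-Hochberg, from 0.0012 to 0.3 over the alternatives), with 4 of 5 XYM mice below all 4 XYF mice. Birc5 differed by -1.59 ± 0.48 (limma adjusted p 0.0226, from 0.00177 to 0.339 over the alternatives), again with 4 of 5 XYM mice below all XYF mice. Cdk1 differed by -1.29, Ccnb2 by -1.16, Ccna2 by -1.11, Aurka by -1.0, Ccnb1 by -0.91 and Cdc20 by -0.90. Their limma adjusted p ran from 0.026 (Cdk1) to 0.0853 (Ccna2), with 4 of 5 XYM mice below the XYF mean in each. Above the XYM mean lay 4 of 4 XYF mice for Cdk1 and Cdc20, and 3 for Ccnb2, Ccna2, Aurka and Ccnb1. The kinase genes Plk1 (-0.82) and Aurkb (-0.64) were not called, nor were Mki67 (-1.03), Top2a (-0.59), Bub1 (-0.72) and Foxm1 (-0.25).

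Among S phase genes of the same comparison, Rrm2 differed most, by -1.33, then Cdc6 by -1.20, Tyms by -1.08 and Tk1 by -1.07 (limma adjusted p 0.0414, 0.0287, 0.0139 and 0.0218), each with 4 of 5 XYM mice below the XYF mean. Ccne1 differed by -0.87, Ccne2 by -0.87, Gins2 by -0.83 and Uhrf1 by -0.83. Mybl2 differed by -0.77, Mcm7 by -0.75, Mcm10 by -0.75, Cdc45 by -0.70 and Rrm1 by -0.65, with limma adjusted p between 0.0178 (Gins2) and 0.0976 (Cdc45) over the genes from Ccne1 to Rrm1 and at least 4 of 5 XYM mice below the XYF mean in each. Above the XYM mean lay 4 of 4 XYF mice for Rrm2, Cdc6, Tyms, Tk1, Gins2 and Mcm7. For Ccne1, Ccne2, Uhrf1, Mybl2, Mcm10, Cdc45 and Rrm1 there were 3. Mcm7 was the only ring subunit called. Mcm3 (-0.48), Mcm5 (-0.56), Mcm6 (-0.45) and Cdt1 (-0.33) had adjusted p under 0.1 by limma but a difference under the fold threshold, and Mcm2 (-0.36) and Mcm4 (-0.29) did not reach it either way.

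The count of 21 depended on single mice. It was 37 without XYF F7 (2186 of all 14145 genes called) and 38 without XYM 9 (2956 of 14151), and it was 6 without XYF F6 (1396 of 14139), 9 without XYF F9 (2545 of 14126), 9 without XYM 12 (1632 of 14140), 13 without XYM 15 (2701 of 14150) and 11 without XYM 16 (1702 of 14127). Without XYF F9 the share of members called was near that of all genes called in either direction. All 9 were lower in XYM, and 1453 of all 14126 genes were called lower. Birc5, Ube2c, Ccne1, Gins2, Tyms and Tk1 were called whichever mouse was left out, and also when XYM and XYF were fitted alone, where no other member was. Cdk1, Mcm7 and Cdc6 lost the call only without XYF F6. Rrm2 and Uhrf1 lost it without XYF F6, XYF F9 or XYM 12, and Ccnb2 and Cdc20 also without XYM 16. Aurka, Ccne2 and Mybl2 lost it without any of these or XYM 15, and Ccnb1, Ccna2 and Mcm10 without XYM 13 as well. Rrm1 kept it in 6 and Cdc45 in 2 of the 19 fits without 1 mouse. The median moved from -1.16 (without XYF F7) to -0.49 (without XYF F9) for mitotic genes and from -1.0 to -0.51 for S phase genes, also without those mice. Without XYF F6 and XYF F9 together, an alternative chosen after seeing the data, no member was called and the medians were -0.14 and -0.19. Without those and XYM 9, also chosen after seeing the data, 11 were called and the medians were -0.48 and -0.45. The counts of all genes called in these joint fits are not given here, so the member counts cannot be set beside a share.

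In the same comparison all 12 erythroid markers were called lower in XYM (median -2.16) and 7 of 8 B cell markers higher (median 0.83). Of the T cell markers 6 of 8 were called lower (median -0.77). None of these counts changed by more than 1.5 times without any mouse, but single calls were lost. Without XYF F6, Slc4a1, Rhag, Epb42, Tfrc, Cd79a, Cd79b and Cd3d lost theirs. Without XYF F9, Epb42, Tfrc, Cd79a and Cd79b did, and without XYF F7, Cd3d and Lck. Tfrc and Cd79b also lost it without XYM 12, XYM 13, XYM 15 or XYM 16, and Epb42 without XYM 12 or XYM 16. Of the megakaryocyte markers 4 of 5 were called lower (median -0.72), 2 without XYF F9 and 1 without XYM 16. Neutrophil precursor markers had a median of -0.55 with 0 of 8 called, but 6 without XYM 9 and 1 without XYF F8. Myeloid markers had a median of -0.46 with 0 of 8 called. There were 4 without XYF F8, 2 without XYM 9 and 1 without XYF F6, XYF F9 or XYM 13. Among plasma cell markers Irf4 (1.03) was called higher and Tnfrsf17 (-0.82) lower, each whichever mouse was left out. The part of these cells in the lower level of the 43 genes was not tested.

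Averaged over XX and XY, the means of cell cycle genes were also lower in males than in females, by less. All 43 differences were below 0, with a median of -0.50 over mitotic and -0.47 over S phase genes, beside 0.02 over all genes. limma called 12 members, all lower in males, where 7.32% of all genes were called and 5.36% were called lower. Of these, 8 were mitotic and 4 S phase, and limma-voom called 16 members. Ube2c differed by -1.03 ± 0.34 (SE; limma adjusted p 0.0336, from 0.00184 to 0.212 over the alternatives), Birc5 by -1.01 ± 0.33 (adjusted p 0.0308) and Cdk1 by -0.86 ± 0.28 (adjusted p 0.0286), each with 9 of 10 males below the female mean, XYM 9 being the exception. Rrm2 differed by -0.92, Cdc6 by -0.84, Tyms by -0.65 and Tk1 by -0.64, with limma adjusted p of 0.0393, 0.0256, 0.0236 and 0.0381. In each of these, 9 of 10 males lay below the female mean. Above the male mean lay 9 of 9 females for Ube2c, Birc5, Cdk1, Rrm2, Cdc6 and Tyms, and 8 for Tk1. Mki67 (-0.85), Ccnb2 (-0.80), Ccna2 (-0.75), Aurka (-0.65) and Ccnb1 (-0.64) were the others called, with limma adjusted p from 0.0446 (Ccnb2) to 0.0944 (Ccna2). In each, 9 of 10 males lay below the female mean. Of the females, 9 of 9 lay above the male mean for Ccnb2, 8 for Aurka and 7 for Mki67, Ccna2 and Ccnb1. For Plk1, not called, 9 of 10 males lay below the female mean too, but only 4 of 9 females above the male mean. Top2a (-0.43), Plk1 (-0.43) and Mcm2 (-0.36) were not.

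The 12 calls between males and females also moved with single mice. There were 28 without XYF F7 (1110 of all 14145 genes called) or without XYM 9 (1253 of 14151), 5 without XYF F6 (837 of 14139), and 7 without XYF F9 (1116 of 14126), XYM 12 (929 of 14140) or XYM 16 (915 of 14127). Cdk1, Birc5, Ube2c, Cdc6 and Rrm2 kept their call whichever mouse was left out, and Ccnb2 and Tyms lost it only without XYF F6. Tk1 lost it without XYF F6, XYF F9, XYM 12 or XYM 16. Ccnb1 lost it without XXF F3, XYF F6, XYF F9, XXM 5, XXM 7, XYM 12, XYM 15 or XYM 16, and Aurka without any of these or XXF F2. Mki67 and Ccna2 kept it in 5 of 19 fits without 1 mouse, those without XXF F5, XYF F7, XXM 6, XXM 8 or XYM 9. Without XYF F6 and XYF F9 together (chosen after seeing the data) no member was called and the medians were -0.18 and -0.23. Without those and XYM 9 there were 6, with medians of -0.35 and -0.33. Here too the counts of all genes in the joint fits are not given, so these counts cannot be set beside a share. Erythroid markers were again 12 of 12 lower in males and B cell markers 6 of 8 higher, and 7 of 8 T cell markers were called lower in males (median -1.12), the rest of the list being Cd4.

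Among mice with XX, the medians between males and females lay nearer to 0, and whether this comparison differs from that among XY mice is what the interaction given last tests. All 5 XXF mice lay within a narrow range, -0.41 to 0.08 on the mitotic score, and the XXM mice from -0.88 to 0.06. In XXM minus XXF, 40 of 43 differences were below 0, with a median of -0.28 over mitotic and -0.22 over S phase genes, beside -0.01 over all genes. limma called 0 members where 4.22% of all genes were called, none had an unadjusted p under 0.05, as 2807 of all 14186 genes did, and limma-voom on recovered reads called 0. The count stayed at 0 without each mouse, 1 member had an unadjusted p under 0.05 without XXM 8, and the lowest adjusted p by limma was 0.355 with all mice. No member separated XXM from XXF, as 9.71% of all genes did. The largest difference was that of Mki67, at -0.66 ± 0.51 (limma adjusted p 0.528), with XXM 5, XXM 2 and XXM 7 below every XXF mouse and XXM 6 and XXM 8 within the XXF range. The median over mitotic genes was -0.16 without XXM 5 and -0.40 without XXM 8, and that over S phase genes -0.16 without XXM 5 or XXF F1. T cell markers differed far more between these groups: all 8 were called lower in XXM, with a median of -1.47.

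**Figure D5:**
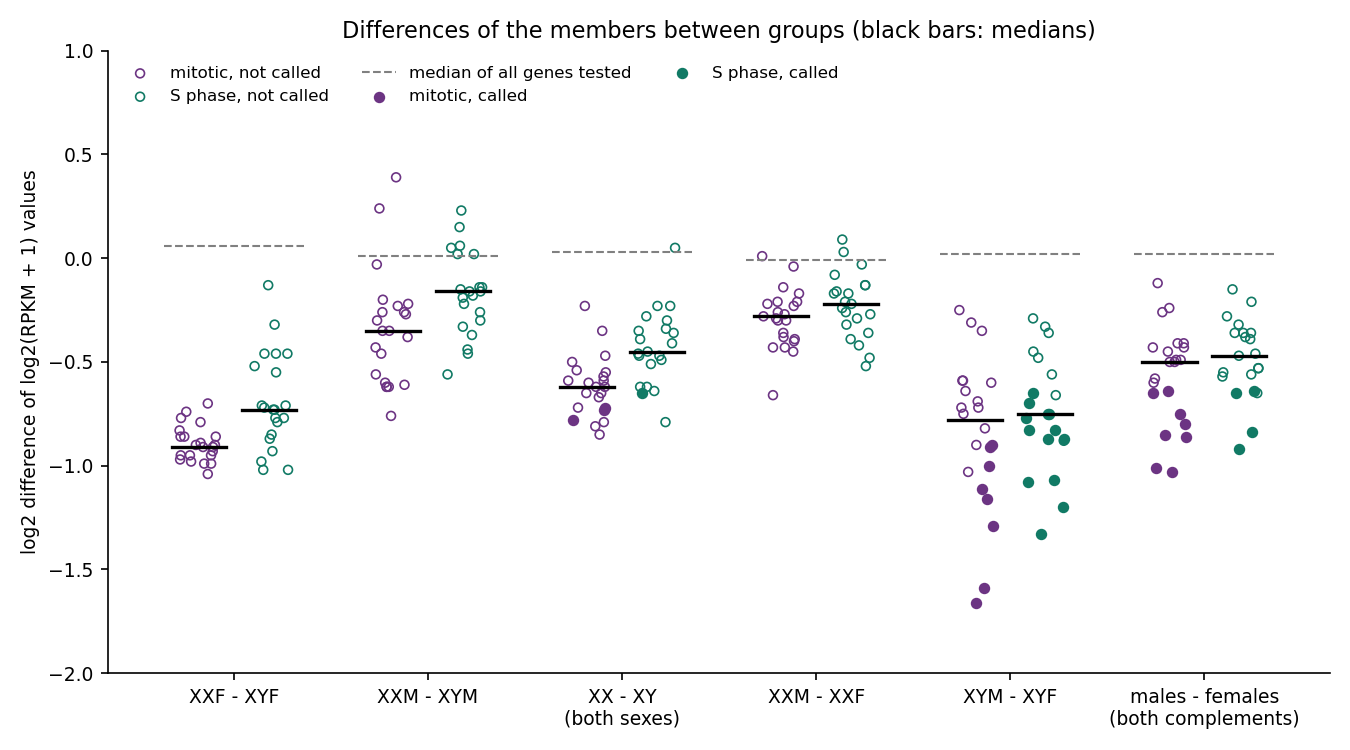
limma log2 differences of the 43 genes in the comparisons between groups, 1 point per gene (filled if called), mitotic and S phase genes apart, with the median of each set and of all genes. XYM minus XYF (medians -0.78 and -0.75) and XXF minus XYF (-0.91 and -0.73) lie lowest, and XXM minus XYM (-0.35 and -0.16) and XXM minus XXF (-0.28 and -0.22) nearer to 0.

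XX and XY mice with ovaries compare sex chromosomes at like gonads. Cell cycle genes were lower in XXF than in XYF mice in the mean, and the XYF mice differed: F6, F8 and F9 were high and F7 was as low as the XXF mice. All 43 differences were below 0, with a median of -0.91 over mitotic and -0.73 over S phase genes, beside 0.06 over all genes. limma called 0 members where 1.38% of all genes were called. At an unadjusted p under 0.05 there were 32 members (15 mitotic, 17 S phase) and 2655 of all 14186 genes, limma-voom called 0, and the lowest adjusted p by limma was 0.129. No member separated the groups, as 5.65% of all genes did. Without XYF F7, 39 members were called, all lower in XXF, and 850 of all 14145 genes, and without XYM 9, which is in neither group but enters the common spread, 11 members and 417 of all 14151 genes were. Without XYF F9 the count at an unadjusted p under 0.05 fell to 5 (1389 of all 14126 genes), without XYF F6 to 9 (1886 of 14139) and without XXF F5 to 15 (1857 of 14155). Plk1 had the largest difference, -1.04 ± 0.39 (SE; limma adjusted p 0.186), with 3 of 4 XYF mice above every XXF mouse. Rrm2 differed by -1.02 and E2f8 by -1.02, Mki67 by -0.99, Top2a by -0.95 and Cdk1 by -0.90, while Mcm2 differed by -0.46 and Cdt1 by -0.13. The medians ran from -1.26 and -1.02 without XYF F7 to -0.62 and -0.56 without XYF F9. Without XYF F6 and XYF F9 together, chosen after seeing the data, they were -0.23 and -0.18. Of the NK cell markers 5 of 6 were called higher in XXF (median 1.36), 3 without XXF F4 and 2 without XXF F5, XYF F6 or XYF F9. Neutrophil precursor markers had a median of -2.18, and all 8 had an unadjusted p under 0.05. Of these 8, 2 were called lower in XXF, 0 without XXF F1, XXF F2, XXF F4, XXF F5, XYF F6, XYF F9 or XXM 5, 1 without XXF F3, XXM 2, XXM 6, XXM 7, XXM 8, XYM 13, XYM 15 or XYM 16, 5 without XYF F7, 7 without XYF F8 and 8 without XYM 9. Of the plasma cell markers 2 of 9 (Tnfrsf17 and Derl3) were called lower in XXF (median -0.47; 6 at an unadjusted p under 0.05), 1 without XXF F1 and 0 without XXF F4, XXF F5, XYF F6 or XYF F9. Erythroid markers had a median of -0.67, with 0 of 12 called and 1 at an unadjusted p under 0.05. B cell markers had a median of 0.45, with 5 of 8 at an unadjusted p under 0.05. Of these, Cr2 was called higher in XXF, and 4 were called without XYF F7 and 3 without XYF F8. Megakaryocyte markers had a median of -0.49, with 4 of 5 at an unadjusted p under 0.05. Gp9 was called lower in XXF, but 0 were called without XXF F5, XYF F6 or XYF F9. There were 2 without XYF F7, XYM 16 or XYM 9 and 3 without XYF F8. The part of these cells was not tested.

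The same comparison in mice with testes gave smaller medians. In XXM minus XYM, 35 of 43 differences were below 0, with a median of -0.35 over mitotic and -0.16 over S phase genes, beside 0.01 over all genes. limma called 0 members where 2.96% of all genes were called. At an unadjusted p under 0.05 there was 1 member, Cdt1 (0.23, higher in XXM), and 3846 of all 14186 genes, limma-voom on recovered reads called 0, and the lowest adjusted p by limma was 0.145. No member separated the groups, as 4.07% of all genes did. The largest difference was that of Kif11, -0.76 ± 0.42 (limma adjusted p 0.249), with XXM 2 and XXM 5 below every XYM mouse. The negative medians rested on XYM 9: without that mouse they were -0.03 and 0.02, and 21 of 43 differences were below 0. The count of members called stayed at 0 without each mouse. The count at an unadjusted p under 0.05 was 0 without XXM 2, XYM 13 or XYM 16, rose to 5 without XYF F7, XYF F9 or XXM 8 and to 6 without XYM 15, and was 2 without XXF F1, XXF F3, XXM 7, XYM 12 or XYM 9. Of the germinal centre B cell markers 4 of 8 were called lower in XXM (median -0.68), 1 without XXM 2, XYM 12, XYM 13 or XYM 16 and 2 without XXM 5, XXM 6 or XXM 8. Of the NK cell markers 3 of 6 were called higher (median 0.83), 1 without XXM 2, XXM 5, XXM 6, XYM 12, XYM 13 or XYM 16. Of the T cell markers 2 of 8 were called lower (median -0.24), 1 without XXF F5 and 0 without XXM 2, XXM 5, XXM 6, XYM 12, XYM 13 or XYM 16. Erythroid markers had a median of 0.65, and 2 of 12 (Hba-a1 and Hba-a2) were called higher in XXM. There were 0 without XYM 12, XYM 13, XYM 16, XXM 2, XXM 5, XXM 6 or XXF F5, 1 without XXF F2, XXF F4 or XXM 8, and 5 without XYM 9. Neutrophil precursor markers had a median of -0.78, with 0 of 8 called and 0 at an unadjusted p under 0.05. Plasma cell markers had a median of -0.27, with 0 of 9 called and 3 at an unadjusted p under 0.05. The medians were -0.11 for myeloid, 0.21 for B cell and 0.28 for megakaryocyte markers. The part of these cells was not tested.

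With females and males averaged, the means of most cell cycle genes were lower in XX than in XY mice, but few were called. In 42 of 43 members the difference was below 0, Cdt1 (0.05) being the exception, with a median of -0.62 over mitotic and -0.45 over S phase genes, beside 0.03 over all genes. limma called 4 members, all lower in XX, where 1.72% of all genes were called and 1.21% were called lower, and limma-voom called 3. They were Bub1 (-0.78 ± 0.25, adjusted p 0.0925), Bub1b (-0.72 ± 0.23, 0.086), Foxm1 (-0.73 ± 0.22, 0.0819) and Uhrf1 (-0.65 ± 0.21, 0.0963), each by limma with Benjamini-Hochberg. In each of the 4, all 10 XX mice lay below the XY mean, and 7 of 9 XY mice above the XX mean. Over the alternatives the adjusted p of these 4 genes by limma ran from 0.0187 (Foxm1) to 0.499 (Uhrf1). Kif11 had the largest difference (-0.85 ± 0.31) but an adjusted p of 0.125 by limma. At an unadjusted p under 0.05 there were 28 members and 3234 of all 14186 genes, 18 members without XYF F6 (3158 of all 14139 genes) and 14 without XYF F9 (2145 of 14126). None of the 4 calls was kept whichever mouse was left out. No member was called without any of XXF F2, XXF F3, XXF F4, XXF F5, XYF F6, XYF F9, XXM 2, XXM 5, XXM 7, XYM 13, XYM 16 or XYM 9, 1 was called without XYF F8 or XXM 6 (Foxm1), 8 without XXF F1 (296 of all 14138 genes called), 16 without XYM 15 (406 of 14150) and 28 without XYF F7 (518 of 14145). Without XYF F6, XYF F9 and XYM 9 together, chosen after seeing the data, the medians were -0.14 and -0.07. Of the NK cell markers 5 of 6 were called higher in XX (median 1.14). Of the neutrophil precursor markers 5 of 8 were called lower in XX (median -1.48), 0 without XYF F9, 2 without XXF F5, XXM 5 or XYM 13, 3 without XXF F2, XXF F3, XXF F4, XXM 2, XXM 7, XXM 8 or XYF F6, and 8 without XYM 15. Of the germinal centre B cell markers 4 of 8 were called lower in XX (median -0.57), and 2 without XXF F5, XXM 2, XYF F8, XYF F9 or XYM 13. The part of these cells was not tested.

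Whether the difference between XX and XY itself differed between males and females was tested as an interaction, the difference in males minus that in females. The median was 0.50 over mitotic and 0.56 over S phase genes, beside -0.02 over all genes, and only Mcm2 lay below 0, by less than 0.01. limma called 0 members where 0.0846% of all genes were called, 2 members (Cdt1 and Tyms) and 2979 of all 14186 genes had an unadjusted p under 0.05, limma-voom called 0, and the lowest adjusted p by limma was 0.167. The largest value was that of Ube2c, 1.26 ± 0.69 (SE; adjusted p 0.289 by limma), from differences of -0.86 in females and 0.39 in males. Without XYM 9, 10 members were called, all above 0, and 1692 of all 14151 genes. The members at an unadjusted p under 0.05 were then 24 (4169 of all 14151 genes), and they were 20 without XYF F7 (3158 of 14145) and 0 without XYF F6 (2128 of 14139). The medians were 0.20 and 0.35 without XYF F9, with 6 members below 0, 0.91 and 0.83 without XYF F7, and 0.84 and 0.77 without XYM 9. The medians of marker lists in the interaction were 1.35 for erythroid, 1.4 for neutrophil precursor, 0.81 for megakaryocyte and -0.70 for T cell markers, and 0 genes of these lists were called. At an unadjusted p under 0.05 there were 3 of 12, 0 of 8, 4 of 5 and 4 of 8. Without XYM 9, 7 erythroid, 6 neutrophil precursor, 2 megakaryocyte and 5 T cell markers were called. Without XXF F3 or XYF F8, 2 erythroid, 3 megakaryocyte and 2 T cell markers were called, and without XYM 15 there were 1, 2 and 2. The part of these cells was not tested.

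Other genes of the cycle, from lists of known genes, were counted in the same fits. Of 37 other replication genes limma called 16 lower and 0 higher in XYM than in XYF, where 15.8% of all genes were called and 8.13% were called lower (median -0.49; 10 called without XYF F6). The largest were Orc1 (-1.21), which marks origins, Dut (-1.0), which removes dUTP, Dscc1 (-0.98), Fen1 (-0.98), which trims the lagging strand, and Gins1 (-0.93), all called without each mouse. Of 45 other mitotic genes, 16 were called lower and 0 higher (median -0.69), among them Cdca3 (-1.39), Pbk (-1.22), Cdca8 (-1.16), Kif22 (-1.14) and Spc25 (-0.98). That count was 3 without XYF F6, 7 without XYM 12, 9 without XYF F9, 10 without XYM 16, 40 without XYF F7 and 39 without XYM 9. Cdca3 and Cdca8 lost the call only without XYF F6, Pbk also without XYM 12, Kif22 also without XYF F9 and XYM 12, and Spc25 without XYF F6, XYF F9, XYM 12, XYM 13, XYM 15 or XYM 16. Of 26 G1 regulators and inhibitors 3 were called lower, Cdkn2d (-0.86), E2f2 (-0.77) and Cdkn2c (-0.76), and 2 higher, the pocket protein gene Rbl2 (0.75) and the kinase gene Cdk6 (0.65), with a median of 0.09, a share of calls near the 15.8% of all genes. Rbl2 averaged 4.55 ± 0.26 in XXF, 4.06 ± 0.21 in XYF, 4.36 ± 0.28 in XXM and 4.81 ± 0.27 in XYM, the reverse of the cell cycle genes between XYF and XYM. Rbl2 and Cdkn2d were called without each mouse, Cdk6 not without XYF F7 or XYM 12, and E2f2 and Cdkn2c not without XYF F6, XYF F9, XYM 12, XYM 13, XYM 15 or XYM 16. The G1 count of 5 was 2 without XYM 12 and 3 without XYF F6, XYF F9, XYM 13, XYM 15 or XYM 16.

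In the other comparisons few of these genes were called. In females with XX against XY, Chek1 (-0.81) of the replication list was lower in XXF, but not without XXF F1, XXF F2, XXF F4, XXF F5, XYF F6 or XYF F9. In all, 22 genes of that list were called without XYF F7 and 6 without XYM 9. No other mitotic gene was called there, 33 of 45 had an unadjusted p under 0.05, beside 2655 of all 14186 genes, and 38 were called without XYF F7, 16 without XYM 9 and 1 without XYF F8. In XXM against XYM, Pole (-0.76) and the G1 kinase gene Cdk6 (-0.81) were lower in XXM, 1 of 37 and 1 of 26 genes, shares near the 2.96% of all genes called. Without XXM 2, XXM 5, XYM 12, XYM 13 or XYM 16 neither was called, nor was Pole without XXF F4, XXF F5, XYF F8, XXM 6 or XYM 9. The G1 count rose to 2 without XXM 7 or XXM 8 and to 3 without XYM 15. Over both gonadal sexes the checkpoint kinase gene Chek1 (-0.63) and Pole (-0.61) were lower in XX, 2 of 37 genes, where 1.72% of all genes were called. Without XYF F9 or XYM 9 neither was called, without XYF F6 Chek1 was not, and without XXF F2, XXF F3, XXF F5, XXM 2, XXM 5, XYM 13 or XYM 16 Pole was not, while 4 were called without XXF F1, 5 without XYM 15 and 9 without XYF F7. Of the 45 genes of the mitotic list only the separase gene Espl1 (-0.64) was lower in XX, a share near that of all genes, and that call was lost without each mouse but XXF F1 (6 genes of the list called), XYF F7 (29), XXM 8 (1) and XYM 15 (15), and 2 genes of the list but not Espl1 were called without XYM 12. Males minus females, where 7.32% of all genes were called and 5.36% were called lower, gave 5 of 37 replication genes lower, Orc1 (-0.77), Dscc1 (-0.67), Rfc4 (-0.65), Chaf1b (-0.62) and Dut (-0.60), and 7 of 45 mitotic genes lower, the largest being Cdca3 (-0.86). The replication count was 1 without XYF F6, 3 without XYM 16, 8 without XXM 8, 10 without XXF F5, 13 without XYM 9 and 14 without XYF F7. The mitotic count was 0 without XYF F6, 3 without XYF F9, XYM 12 or XYM 16, 4 without XXF F3, XXM 5 or XYM 15, and 24 without XYF F7 or XYM 9. In XXM minus XXF limma called no gene of these lists, with 4 of 37 replication, 0 of 45 mitotic and 6 of 26 G1 genes at an unadjusted p under 0.05, beside 2807 of all 14186 genes. These shares are near or under that of all genes.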

How the data were processed

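RNA of splenocytes from 19 immunized mice (5 XXF, 4 XYF, 5 XXM and 5 XYM) was sequenced, 1 library per mouse. By the submitters' notes, the authors used Subread for alignment to mm10 and featureCounts for counting, scaled reads by gene length and library size, and deposited log2 RPKM values. Versions of these programs were not given. The authors used EdgeR for testing, and limma is used below instead. The deposited log2 values equalled log2(RPKM + 1) with 0.0001 added, tested on the recovered reads. All columns of values were mapped to mice by the sample records (0 unmapped).

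Whole reads were recovered from the steps between the values of each gene, where at least 334 genes set each relative depth and the exon lengths of 623 genes set the scale. Recovered reads fell short of a library size by at most 47. Libraries held 11263753 to 19962022 reads, and the member with the fewest reads in any mouse had 41, so counting error is small beside the spread between mice for all but the lowest values.

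Group means were fitted with limma 3.58.1 (R 4.3.3), by eBayes with a mean-dependent trend, on the 14186 genes that reached an RPKM of 0.5 in 4 or more mice. The 7 comparisons were XX with XY and males with females, each apart and averaged, and the interaction. Genes were called at a Benjamini-Hochberg adjusted p under 0.1 over all genes tested and a change of more than 1.5 times. The fit was tested on simulated data, but no outcome of that test is given here. Scores are means of centred log2 values. The other steps ran in Python 3.11.15 (matplotlib 3.10.9, scipy 1.17.1, pandas 2.3.3, numpy 2.4.6).

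The 43 members and the 14 lists were chosen with earlier results of these data known. Values are given in full for members called in any comparison or among the 3 highest and the lowest in mean RPKM of each list, for the member with the largest difference in each comparison, and for Mki67, Top2a, Mcm2 and Cdk1. Cdt1 and other members are named beyond that rule. From the other lists at most 5 called genes are named per comparison.

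The alternatives were other pseudocounts (0.1 and 0.5), no filter or a minimum RPKM of 1, quantile normalization, median ratio rescaling, limma-voom on recovered reads, no trend of the spread, array weights, the compared groups alone, an adjusted p under 0.05, no fold threshold, and each mouse left out. XYF F6 with XYF F9, and those with XYM 9, were left out jointly after the data had been seen. No mouse was left out otherwise, and reads were not realigned.

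The values of 1 gene of the other replication genes are not reported here, though the counts and medians of that list include it.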

Additional observations from a re-analysis of the deposited data

Results flagged for a closer look

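The 32 members whose values are given mouse by mouse, both scores and the log2 sums of 9 marker lists were checked in each group for a mouse far from the others by Dixon's ratio at the 5% level, 172 sets of values in all. At 1 in 20, chance alone would give 8.6 such values, and there were 10. Of these, 8 were in XYM 9, whose values of different genes come from the same library. In XYM 9 Ccne1 stood at 4.39 (other XYM mice 3.44 to 3.64), Ccne2 at 3.60 (1.84 to 2.32), Mcm6 at 6.24 (5.48 to 5.68) and Mcm7 at 5.88 (4.79 to 5.05). Cdc45 in XYM 9 was 4.38 (2.72 to 3.20), Rrm1 6.0 (4.77 to 5.06) and Tyms 3.07 (1.52 to 1.89). All 7 of these genes are S phase genes. The ratio sets the gap to the next mouse against the range of the group, so it does not rank the sets by distance. In mitotic genes XYM 9 stood apart as well, with Ube2c at 7.31 (4.22 to 5.67) and a mitotic score of 1.32 (-0.69 to 0.04). The log2 sum of myeloid markers in XYM 9 was 11.91 (9.91 to 10.45). Tk1 in XXM 8 was 4.48 (other XXM mice 3.90 to 4.06), and the log2 sum of germinal centre B cell markers in XXM 2 was 4.81 (5.24 to 5.41). None of these values was left out of the results above.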

How the results depend on the processing

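Counts of members called are by limma with Benjamini-Hochberg adjustment, and the cause of each change was not tested. In this section the counts stand without those over all genes, and they are not read as a result about the members. For XXF minus XYF the count was 0, and 6 with array weights, which gave XYF F9 and XYM 9 the lowest weights (0.333 and 0.344). Without 1 mouse it ran from 0 to 39 (without XYF F7). For XXM minus XYM it was 0, and 1 without XYF F6, XYF F9 and XYM 9. Averaged over both sexes the XX minus XY count of 4 became 9 with array weights, 0 with no filter, 0 at an adjusted p under 0.05, and 0 and 0 without XYF F6 and XYF F9, with or without XYM 9. Without 1 mouse it ran from 0 to 28. For XYM minus XYF the count of 21 became 6 with the compared groups alone, 13 at an adjusted p under 0.05, 0 without XYF F6 and XYF F9, and 11 without those and XYM 9. Without 1 mouse it ran from 6 (XYF F6) to 38 (XYM 9). For males minus females the count of 12 became 23 with no fold threshold, 0 without XYF F6 and XYF F9, and 6 without those and XYM 9. Without 1 mouse it ran from 5 to 28. The interaction had 0, but 6 with array weights and 10 without XYM 9 (0 without each other mouse).

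For XXF minus XYF the medians were -0.91 and -0.73 over mitotic and S phase genes, and -0.23 and -0.18 without XYF F6 and XYF F9, with or without XYM 9. For XYM minus XYF they were -0.78 and -0.75, and -0.14 and -0.19 without XYF F6 and XYF F9. The medians of all 7 comparisons kept their sign under each alternative, except XXM minus XYM over S phase genes without XYM 9 (0.02, and 0.02 also without XYF F6 and XYF F9) and the interaction over mitotic genes without XYF F6 and XYF F9 (-0.13). Of the called members, 0 were called under every alternative, since none was without XYF F6 and XYF F9. Leaving mice out jointly was chosen after seeing the data. Quantile normalization and median ratio rescaling changed the count for XYM minus XYF to 22 and 24.

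Replicate names are not shared between groups, so no paired analysis applied. Groups held 4 or 5 mice. Cell counts and position in the cycle were not measured. No batch is given for these libraries. In the sample titles a further tag marks XXM mice and no other group, so any effect of what the tag stands for and of group cannot be told apart, and the sources used here name different library kits. RPKM is relative to all RNA of a library.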
